A study of Mus musculus with 2 samples.

Results

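Fatty acid desaturases and elongases are the 7 genes Scd1, Scd2, Fads1, Fads2, Elovl5, Elovl2 and Elovl3, picked by symbol from the 32285 genes listed for both libraries, and all 7 were found. Scd1 is set against the other 6 here because its level had already been seen to differ between the libraries, so the values below describe these genes and are not tested. Single-cell RNA-seq with 10x Genomics 3′ chemistry, which counts each captured RNA molecule once by a unique molecular identifier (UMI), was done on 2 liver suspensions of littermate mice. The WT library came from mice with intact miR-33. The HKO library came from mice in which Cre recombinase under the albumin promoter, labelled AlbCRE, removes a loxP-flanked miR-33 gene in hepatocytes. Both groups were males given a high-fat diet lacking choline (CD-HFD) for 6 months from 8 weeks of age, which leads to steatohepatitis. Each library pooled 3 livers, and hepatocytes and sorted non-parenchymal cells were mixed 1:1 before loading. The labels name version 2 of the kit for both libraries, but whether both were made with that version was not settled from the files used here, and a difference in chemistry would bear on every ratio. With 1 library per genotype there was no replicate, so no difference could be compared with a spread between animals, no p-value was computed, and genotype cannot be told apart from pool, preparation or sequencing. All intervals in brackets are at 95% and cover counting error only.

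Desaturases put a double bond into a fatty acid that is already made, and elongases lengthen it. SCD1 makes oleate and palmitoleate from saturated fatty acids in hepatocytes and is a classical target of insulin, LXR and SREBP-1c. SCD2 does the same step in other tissues. FADS2 and FADS1 act in turn on dietary polyunsaturated fatty acids, with ELOVL5 and ELOVL2 adding carbons between and after these steps. ELOVL3 lengthens saturated and monounsaturated fatty acids, and its liver mRNA is known to follow the time of day and androgen.

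Of these genes 5 lie on mouse chromosome 19 (GRCm38, GENCODE M21). Scd1 lies at chr19:44394455-44407879 on the minus strand, beside Scd2 at chr19:44293674-44306864 on the plus strand. Fads1 lies at chr19:10182888-10196877 on the plus strand and Fads2 at chr19:10062765-10101746 on the minus strand. Elovl3 lies at chr19:46131897-46135694 on the plus strand and overlaps Pitx3 on the other strand. Elovl5 lies at chr9:77917364-77984519 on the plus strand, and Elovl2 lies at chr13:41182381-41220405 on the minus strand. Scd1 and Scd2 are related in sequence, so a few UMIs of Scd2 where Scd1 is abundant are uncertain.

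The RNA removed in HKO, mmu-miR-33-5p, is read from an intron of Srebf2 at chr15:82198127-82198147 on the plus strand (RefSeq sequence and position, GRCm38). It is shown with its seed, bases 2 to 8, in capitals, above the only seed match of the kinds searched in the longest annotated 3′UTR of each of the 7 genes. That match, which pairs with bases 2 to 7 and has an A opposite base 1 but does not pair with base 8, at base 950 of the Elovl2 3′UTR (chr13:41184334-41184355, minus strand), has the capitals over the 7 letters AATGCAA.
mmu-miR-33-5p: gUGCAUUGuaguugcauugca
Elovl2 3′UTR: cttcgcatagaAATGCAAttgg
The search used CAATGCA and AATGCAA on the transcript strand, which overlap in the longer CAATGCAA. Of the 7 genes, 1 held a match, against 16.1% of 20831 listed genes with an annotated 3′UTR and 17.6% of the 6884 genes with such a 3′UTR and a mean of at least 10 counts per 1000000 UMIs (CPM) in hepatocyte-like barcodes. A match is a description of letters and not a site of action. Counts of polyadenylated RNA do not measure the mature miRNA, so the deletion itself could not be checked. The host gene Srebf2 was at 24.7 CPM in WT hepatocyte-like barcodes and 19.5 CPM in those of HKO.

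In all, 130451427 UMIs over 30078 barcodes were deposited for WT and 52563185 over 20000 barcodes for HKO. Hepatocyte RNA was found across the cell classes, as the shares given below for Scd1 show. Barcodes were therefore called hepatocyte-like only if no other cell class had 3 or more markers in their cluster. Their depth also had to reach 2 times the most frequent depth of that library, or 5174 UMIs in WT and 1628 UMIs in HKO. This gave 1813 WT and 3507 HKO barcodes, with median depths of 20769 and 4276 UMIs. Below the minimum depth lay 19875 WT and 10085 HKO barcodes, named here by their free RNA depth. The most frequent depth of HKO, 814 UMIs, was close to its lowest, 770 UMIs. All 10 hepatocyte markers were present in both libraries, with a summed level of 73469 CPM in WT and 60256 CPM in HKO. The summed endothelial markers reached 21.5 and 16.9 CPM (11 of 11 with UMIs in both libraries), and the summed macrophage markers 23.3 and 23.0 CPM (12 of 12). Cholangiocyte markers summed to 330 and 213 CPM (6 of 7), mesothelial markers to 405 and 312 CPM (3 of 6) and plasmacytoid dendritic markers to 205 and 125 CPM (4 of 5), and their part was not tested. Genes of the dissociation response summed to 2085 CPM in WT and 1542 CPM in HKO, and their part in the results was not tested.

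Scd1 was higher and Elovl3 was lower in HKO than in WT hepatocyte-like barcodes, while the polyunsaturated fatty acid genes lay between. Scd1 gave 164603 UMIs in WT, or 3481 CPM (3464 to 3498), and 137766 UMIs in HKO, or 5504 CPM (5475 to 5533). The HKO level was 1.58 times that of WT (1.57 to 1.59). Of the 7076 genes with a mean of at least 10 CPM, 110 had a larger ratio. Elovl3 gave 5403 UMIs in WT, or 114 CPM, and 1045 UMIs in HKO, or 41.7 CPM, a ratio of 0.365 (0.342 to 0.390). Only 14 of the 7076 genes had a smaller ratio.

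**Figure D1:**
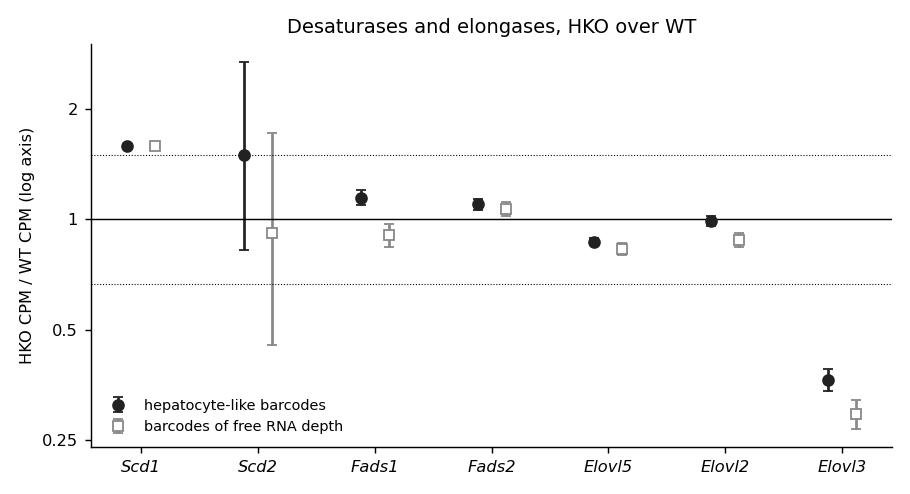
HKO level divided by WT level for each gene on a log axis, in hepatocyte-like barcodes (filled circles) and in barcodes of free RNA depth (open squares), with 95% counting intervals and dotted lines at 1.5-fold. Scd1 lies at 1.58 in both and Elovl3 at 0.365 and 0.295, and the wide intervals belong to Scd2.

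The genes of polyunsaturated fatty acid synthesis differed by less than 1.5-fold. Fads1, the last desaturase on the way to arachidonate, was at 91.7 CPM (89.0 to 94.4) in WT against 105 CPM (101 to 109) in HKO, or 1.15 times the WT level (1.09 to 1.20). Fads2, the first desaturase of the same route, was at 196 CPM in WT against 215 CPM in HKO, or 1.10 times the WT level (1.06 to 1.14). Elovl5, which elongates the products of FADS2, was at 502 CPM in WT against 437 CPM in HKO, or 0.869 times the WT level (0.849 to 0.889). These genes thus lay on both sides of 1, with counting intervals that left out 1. Elovl2, which makes the longest precursors of docosahexaenoate and holds the seed match above, was at 261 CPM in WT against 259 CPM in HKO, or 0.991 times the WT level (0.962 to 1.02), an interval that holds 1. Scd2 gave 29 UMIs in WT and 23 in HKO, under 1 CPM in both, and was not counted among genes with a measured ratio.

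Of the 6 members with a mean of at least 10 CPM, Scd1 was above 1.5-fold in HKO and Elovl3 was below 1 by more than that fold, 1 member each way. Scd1 lost this call at no more than 20% mitochondrial UMIs (1.49), with no depth minimum (1.48), at 20000 to 40000 UMIs (1.35) and in the middle and pericentral zone groups described below (1.44 and 1.47), and it lay below 1 under 5% mitochondrial UMIs (0.867). Over all 7076 such genes, 2.36% were 1.5-fold or more higher and 4.30% lower to that extent, with a median log2 ratio of -0.02. The members had been chosen with these ratios known, so nothing is read from the comparison of the shares.

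Scd1 lay apart from the sum of the other members. The other 6 members together gave 55125 UMIs in WT but 26497 in HKO, 0.908 times in CPM. Relative to this sum Scd1 was 1.74 times as high in HKO (1.71 to 1.77), and its share of the UMIs of all 7 genes was 74.9% in WT and 83.9% in HKO. Gene by gene, the relative ratio was smallest against Fads1, 1.38 (1.31 to 1.45), and Fads2, 1.44 (1.39 to 1.49). It was 1.60 (1.55 to 1.65) against Elovl2, 1.82 (1.78 to 1.86) against Elovl5 and 4.33 (4.05 to 4.63) against Elovl3. The interval lay above 1 for each of these 5 genes, and against Scd2 it was 0.611 to 1.82. The separation from Fads1 and Fads2 did not hold in every subset of barcodes. At 20000 to 40000 UMIs the HKO over WT ratio was 1.35 for Scd1 and 1.36 for Fads1. Under 5% mitochondrial UMIs it was 0.867 for Scd1 and 0.862 for Fads2. In cluster 6, described below, it was 1.40 for Scd1 and 1.45 for Fads2.

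The barcodes with the most Scd1 held a similar share of its UMIs in both libraries. With each barcode thinned to 1500 UMIs, the median was 4 Scd1 UMIs in WT and 7 in HKO, and the lower and upper quartiles were 2 and 7 in WT and 4 and 11 in HKO. No Scd1 UMI was left in 5.79% of WT and 2.99% of HKO barcodes. At least 20 were left in 20 WT barcodes (1.10%) and 177 HKO barcodes (5.05%). The 1% of barcodes with the most Scd1 held 4.67% of its thinned UMIs in WT and 4.42% in HKO. Before thinning, 1813 of 1813 WT and 3505 of 3507 HKO barcodes had an Scd1 UMI, but so had 99.9% and 99.8% of barcodes of free RNA depth, so detection alone says nothing about expression.

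**Figure D2:**
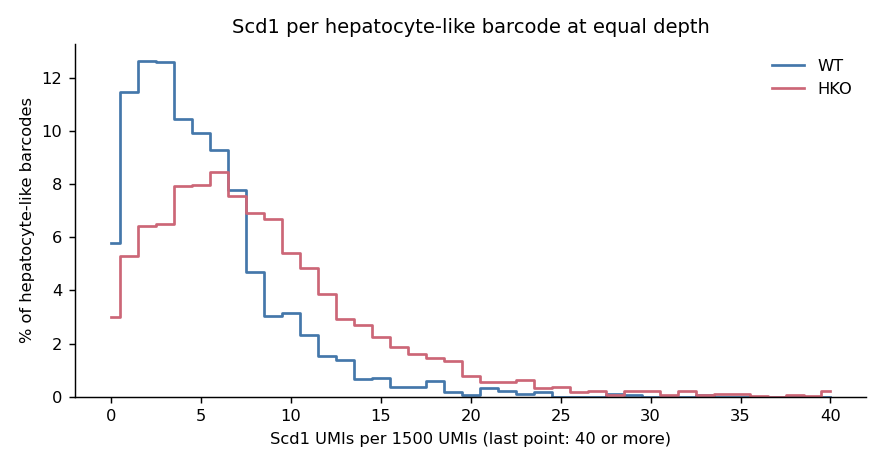
Share of hepatocyte-like barcodes (%) by the number of Scd1 UMIs among 1500 UMIs drawn from each barcode, for WT (blue) and HKO (red). The WT curve peaks at 2 to 3 UMIs with a median of 4, and the HKO curve lies to its right with a median of 7.

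Other members were detected in fewer thinned barcodes. Elovl5 kept a UMI in 49.5% (47.1 to 51.8) of WT and 41.5% (39.9 to 43.2) of HKO barcodes, and Elovl3 in 14.0% (12.4 to 15.7) and 6.30% (5.52 to 7.16). Fads1 kept one in 11.3% (9.89 to 12.9) and 13.3% (12.2 to 14.5). These shares were in the same order between the libraries as the CPM values.

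The difference in Scd1 changed direction with the mitochondrial share of the barcode, a split chosen after the data had been seen. Among barcodes with under 5% mitochondrial UMIs, 577 in WT (31.8%) and 1344 in HKO (38.3%), Scd1 was at 3940 CPM (3910 to 3970) in WT against 3417 CPM (3371 to 3464) in HKO, or 0.867 times the WT level (0.854 to 0.881). Between 5 and 20% it was at 3378 CPM in WT against 6299 CPM in HKO, or 1.86 times the WT level (1.85 to 1.88). Over 20% it was at 2944 CPM in WT against 5849 CPM in HKO, or 1.99 times the WT level (1.955 to 2.02). So Scd1 was higher in HKO where the mitochondrial share was 5% or more and lower below it. The nuclear RNA Malat1 was at 8005 CPM in WT and 11433 CPM in HKO in barcodes with under 5%, against 3997 and 2818 CPM between 5 and 20% and 7129 and 6068 CPM over 20%. Its HKO over WT ratio was 1.43 under 5%, 0.705 between 5 and 20% and 0.851 over 20%. In the HKO barcodes with under 5% the median depth was 2654.5 UMIs and albumin mRNA was at 16774 CPM, about 0.495 times the WT level, and the part of these differences in the Scd1 ratio was not tested.

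**Figure D3:**
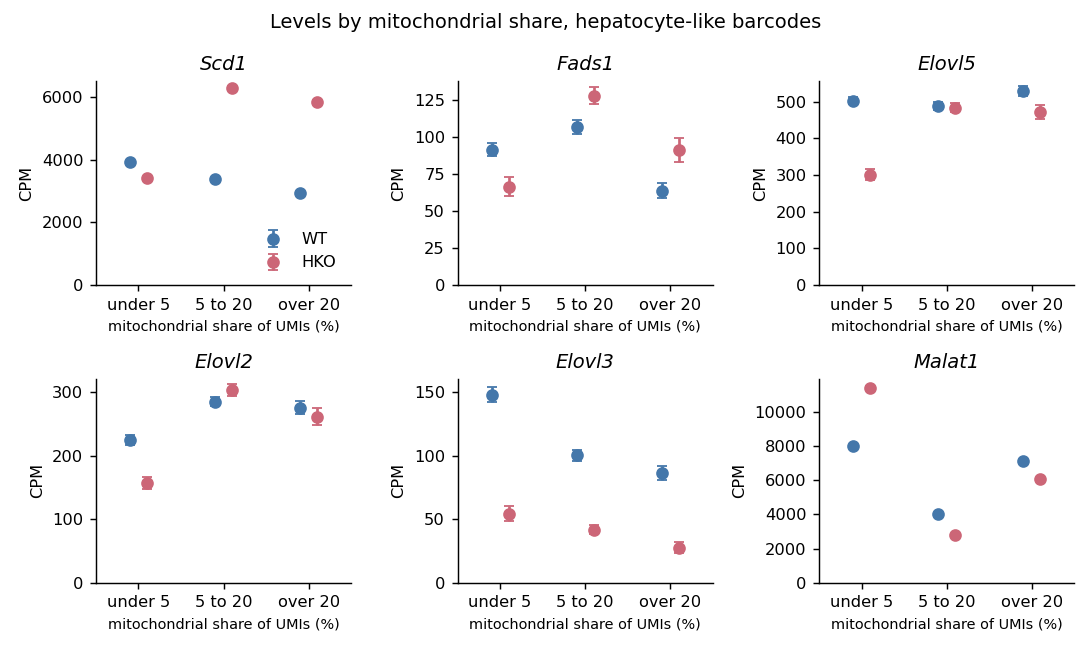
CPM with 95% counting intervals for Scd1, Fads1, Elovl5, Elovl2, Elovl3 and Malat1 in hepatocyte-like barcodes split by the mitochondrial share of UMIs, for WT (blue) and HKO (red). Scd1 is lower in HKO under 5% (ratio 0.867) and higher in the other groups (1.86 and 1.99), whereas Elovl3 is lower in HKO in each of the 3 groups.

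The other members shifted in the same strata, and Elovl3 kept its direction. Elovl3 was at 148 CPM in WT and 54.2 CPM in HKO under 5% (ratio 0.366), at 100 and 41.8 CPM between 5 and 20% (ratio 0.416) and at 86.1 and 27.5 CPM over 20% (ratio 0.319). Fads1 had a ratio of 0.726 under 5%, 1.20 between 5 and 20% and 1.43 over 20%. Elovl5 had ratios of 0.599, 0.991 and 0.890, and Elovl2 of 0.698, 1.07 and 0.948. Fads2 had ratios of 0.862 (0.804 to 0.923), 1.12 and 1.38. Every measured member was thus below 1 under 5%. Relative to the summed others, Scd1 was 1.35 times as high in HKO under 5%, 1.86 times between 5 and 20% and 2.06 times over 20%. The difference relative to this sum thus kept its direction in all 3 strata. Under 5%, however, Scd1 did not lie apart from Fads2, with ratios of 0.867 and 0.862.

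Different clusters held the hepatocyte-like barcodes of the libraries, with 34.7% of WT and 19.2% of HKO in cluster 6, 33.9% and 32.3% in cluster 10, and 25.04% of HKO but 5.57% of WT in cluster 11. Cluster 4 held 13.9% of WT and 0.114% of HKO, and cluster 5 held 10.4% of HKO and 0.276% of WT. Scd1 was higher in HKO in each of the 4 clusters with at least 50 barcodes of both libraries, by 1.40 times in cluster 6, 2.09 in cluster 7, 1.95 in cluster 10 and 1.43 in cluster 11. Elovl3 was lower in each, with ratios of 0.225, 0.450, 0.390 and 0.547. Elovl5 lay at 0.699, 1.21, 1.09 and 0.898 in the same clusters, on both sides of 1. Fads2 lay at 1.45 (1.36 to 1.54), 1.35, 1.13 and 0.878, so in cluster 6 it was no lower than Scd1. Fads1 lay at 1.03, 1.32, 1.20 and 0.937.

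Liver zonation was read from a score of 14 pericentral against 14 periportal marker genes, none of them a member, cut into 3 groups of equal size within each library, called periportal, middle and pericentral. Pericentral hepatocytes surround the central vein, and periportal hepatocytes receive blood from the portal tract. The score separated its own markers, as it must: the pericentral over periportal ratio was 6.47 in WT and 18.5 in HKO for Cyp2e1 and 9.29 and 48.2 for Glul, and 0.514 and 0.269 for Cyp2f2 and 0.329 and 0.223 for Sds. These ratios lay farther from 1 in HKO. Of the barcodes, 26.3% in WT and 26.8% in HKO lay within 0.1 of a cut.

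Scd1 was higher in pericentral than in periportal barcodes of WT, with a smaller difference in HKO. In WT it was at 2915 CPM in the periportal group, 3413 CPM in the middle and 4082 CPM in the pericentral group, a pericentral over periportal ratio of 1.40 (1.38 to 1.42). In HKO these levels were 5488, 4923 and 5991 CPM, a ratio of 1.09 (1.08 to 1.11). The lowest HKO zone lay above the highest WT zone. The HKO over WT ratio was 1.88 (1.86 to 1.91) in the periportal group, 1.44 (1.42 to 1.46) in the middle and 1.47 (1.45 to 1.48) in the pericentral group. The middle group of HKO, where Scd1 was lowest, also had the lowest median depth, 3114 UMIs against 6277 and 4237, and the lowest median mitochondrial share, 6.54% against 12.6 and 8.49%, and their part in the result was not tested.

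**Figure D4:**
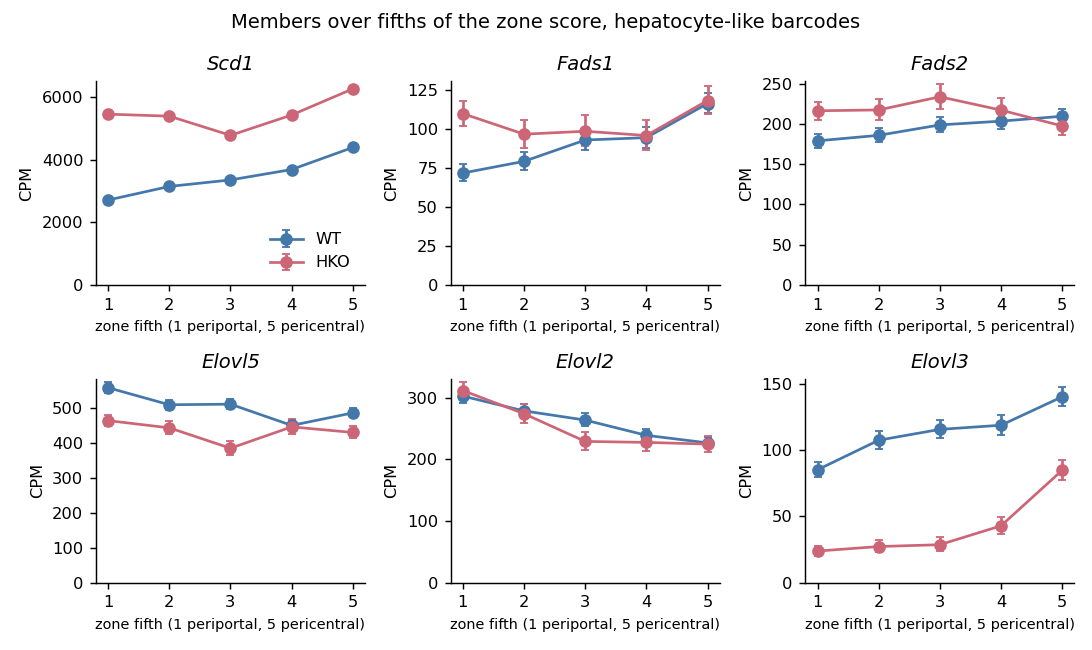
CPM with 95% counting intervals over 5 equal bins of the zone score, from periportal (1) to pericentral (5), for 6 members in WT (blue) and HKO (red) hepatocyte-like barcodes. Scd1, Fads1, Fads2 and Elovl3 climb across the bins in WT, Elovl2 falls in both libraries, and Elovl3 in HKO stays under 30 CPM in the first 3 bins before reaching 84.9 CPM.

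Over 5 equal bins of the score the WT level of Scd1 was 2710, 3143, 3351, 3683 and 4387 CPM. The HKO level was 5448, 5385, 4772, 5422 and 6256 CPM, with no steady order.

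The delta desaturases resembled Scd1 in WT. Fads1 was at 74.96 CPM in the periportal and 109 CPM in the pericentral group of WT, a ratio of 1.45 (1.35 to 1.56), while in HKO it was at 107 and 112 CPM, a ratio of 1.05 (0.961 to 1.15). Its HKO over WT ratio was 1.42 (1.31 to 1.55) in the periportal group but 1.03 (0.952 to 1.12) in the pericentral group. Fads2 had pericentral over periportal ratios of 1.11 (1.06 to 1.17) in WT and 0.949 (0.890 to 1.01) in HKO. Both genes were thus higher pericentrally in WT, and had an interval that held 1 in HKO. For Fads2 in HKO the ratio was 0.874 with the score as a share of UMIs, 0.913 over the outer bins of 5, 0.864 with barcodes weighted equally and 0.895 with doublets kept, all on the periportal side.

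The elongases of polyunsaturated fatty acids ran the other way. Elovl2 was at 293 CPM in the periportal and 231 CPM in the pericentral group of WT, a ratio of 0.787 (0.754 to 0.822), while in HKO it was at 298 and 224 CPM, a ratio of 0.751 (0.709 to 0.797). Elovl5 had ratios of 0.873 (0.846 to 0.900) in WT and 0.940 (0.900 to 0.982) in HKO. Under the alternatives its HKO ratio lay between 0.858, with barcodes weighted equally, and 0.994, from 5000 UMIs. Over the 5 bins its HKO level was 463, 443, 384, 445 and 429 CPM, with no steady order. Elovl2 therefore kept nearly the same levels and gradient in both libraries, with HKO over WT ratios between 0.925 and 1.02 in the 3 zones.

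Elovl3 was the member with the steepest zone difference in HKO. It was at 96.0 CPM in the periportal and 133 CPM in the pericentral group of WT, a ratio of 1.39 (1.30 to 1.48), while in HKO it was at 25.1 and 72.8 CPM, a ratio of 2.89 (2.49 to 3.36). The HKO over WT ratio was 0.262 (0.228 to 0.299) in the periportal group, 0.254 (0.218 to 0.296) in the middle and 0.546 (0.498 to 0.597) in the pericentral group. In WT none of the 6 measured members differed by 1.5-fold between the outer groups, where 3.17% of 7131 genes were that much higher pericentrally and 3.67% periportally. Other ways of drawing the zones ended this: with the score as a share of UMIs Scd1 was at 1.71, Fads1 at 1.67 and Elovl3 at 1.79, and over the outer bins of 5 at 1.62, 1.62 and 1.65. In HKO only Elovl3 did, where 8.83% of 7030 genes were that much higher pericentrally and 3.14% periportally.

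Barcodes rich in Scd1 were also richer in the other measured members, and in zone markers of both ends. Within each library, barcodes were cut into 3 groups by thinned Scd1, and the highest group was compared with the lowest in CPM taken without Scd1. Fads1 was 1.78 times as high (1.65 to 1.93) in WT and 2.00 times as high (1.82 to 2.21) in HKO. Elovl3 was 1.88 times as high (1.76 to 2.02) in WT and 1.57 times as high (1.36 to 1.83) in HKO. Elovl3 thus varied with Scd1 within each library although the pair differed in opposite directions between the libraries. Elovl2 was 1.13 times as high in WT and 1.69 times in HKO, and Elovl5 1.08 and 1.65 times. Fads2 was at 1.38 and 1.18 times, pericentral Cyp2e1 at 1.90 and 2.09 and periportal Cyp2f2 at 1.20 and 1.62. Acaca, the acetyl-CoA carboxylase of fatty acid synthesis, was lower in the Scd1-rich group, by a ratio of 0.571 in WT and 0.497 in HKO. Other synthesis genes went differently, with Fasn at 1.52 and 1.18, Acly at 0.794 and 1.20, and Srebf1 at 1.08 and 0.783. Malat1 was at 0.335 times in WT and 0.195 times in HKO, and the median mitochondrial share went from 13.8 to 9.14% in WT and from 4.49 to 12.7% in HKO, and the part of either was not tested.

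Across 10 points, the 5 zone bins of the 2 libraries, the genes most like Scd1 by Pearson's r of log2(CPM + 1) among 2627 genes were Rps28 (0.979), Atp5md (0.975), Ptges3 (0.968), Rpl36 (0.965) and Dnajb6 (0.961). Over the same points r was 0.813 for Fads1, 0.699 for Fads2, -0.406 for Elovl2, -0.584 for Elovl3 and -0.755 for Elovl5. Over the 5 bins of a single library the sign could turn: Fads2 was at 0.953 in WT but -0.999 in HKO, Elovl3 at 0.973 in WT and 0.767 in HKO, and Elovl5 at -0.751 in WT but 0.522 in HKO. Fads1 was positive in both, at 0.980 and 0.735. The points of 1 library share its depth and preparation, and these values are a description.

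In other liver cells the same genes were read against free hepatocyte RNA. For each class the UMIs expected from free RNA were taken from the barcodes of free RNA depth, scaled by albumin mRNA, over the 8 classes that had 15 or more barcodes per library, or 16 pairs of class and library. Scd1 was found at 1.03 times the expected UMIs at the median of the 16 pairs, between 0.644 and 1.20 times. Its interval lay above expectation in 4 pairs, all in HKO. An Scd1 UMI was present in 99.3% of HKO barcodes of the mixed endothelial and macrophage class, a share no higher than in barcodes of free RNA depth. Elovl3 was above expectation in 0 of 16, Fads2 and Elovl2 in 2 of 16, Fads1 in 5 of 16 and Elovl5 in 9 of 16. With hepatocyte-like barcodes as the source of free RNA the count for Scd1 was 15 of 16, for Elovl5 4 of 16, for Elovl2 0 of 16 and for Elovl3 4 of 16, so these counts depend on the source. Fads1 was above expectation in 5 or 6 pairs under each source or tracer set tried. With the barcodes of free RNA depth scaled by albumin mRNA, it was above by up to 3.83 times (2.79 to 5.15) on 44 UMIs in the mixed endothelial and macrophage class of HKO, and Elovl5 by up to 2.81 times.

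**Figure D5:**
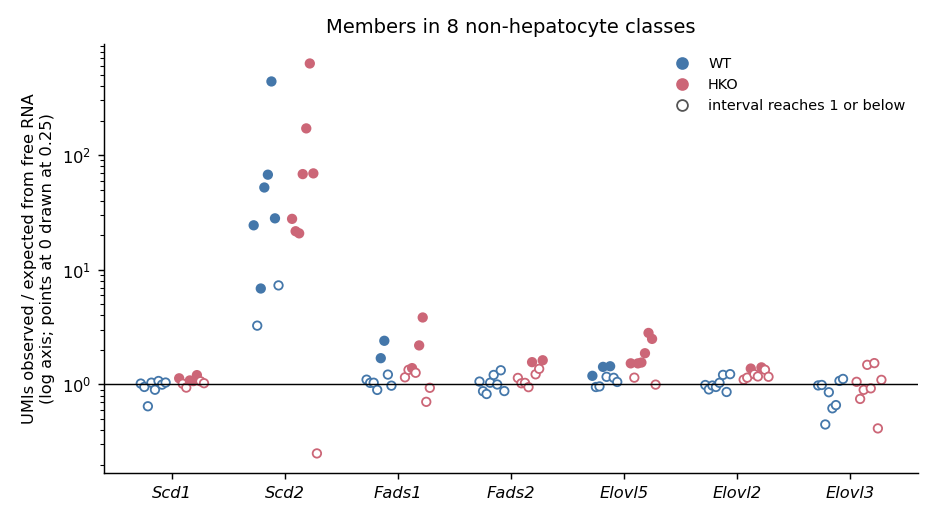
UMIs observed over UMIs expected from free hepatocyte RNA (log axis) for each member in 8 non-hepatocyte classes of WT (blue) and HKO (red), with filled points where the counting interval lies above 1. Scd2 reaches 630 and is above 1 in 13 of 16 pairs, while Scd1 stays between 0.644 and 1.20.

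Scd2 exceeded the free RNA expectation by the widest margin. It was above expectation in 13 of 16 pairs, with a median of 27.9 times, and the counting interval leaves out the error of the expectation, which rests on 67 WT and 12 HKO UMIs. Among the 8 classes it was highest in the mixed endothelial and macrophage class, at 109 CPM (83.2 to 140) in WT, with UMIs in 71.0% of 31 barcodes of median depth 16357 UMIs, and at 67.3 CPM (54.6 to 82.0) in HKO, with UMIs in 36.8% of 144 barcodes of median depth 8757 UMIs. In barcodes of free RNA depth, of median depth 2566 and 900 UMIs, the share with an Scd2 UMI was 0.322% in WT and 0.119% in HKO. The mixed endothelial and stellate class had 41.5 CPM in WT against 41.3 CPM in HKO, B and plasma cells 29.3 and 25.7 CPM, and T and NK cells 14.7 and 9.88 CPM. It was at 7.83 CPM in WT and 17.2 CPM in HKO endothelial barcodes, and at 4.03 and 19.5 CPM in macrophages. Outside the 8 classes, 12 WT and 27 HKO barcodes with cholangiocyte and endothelial markers held 59.4 and 78.6 CPM. In erythroid barcodes 1 Scd2 UMI was found in WT and 0 in HKO, which allows up to 18.6 CPM there.

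Over the whole deposited libraries Scd2 gave 272 UMIs in WT and 288 in HKO, or 2.09 and 5.48 CPM and a ratio of 2.63 (2.22 to 3.11). Within the mixed endothelial and macrophage class the ratio was 0.618 (0.445 to 0.866) and in the mixed endothelial and stellate class 0.996 (0.608 to 1.67). In endothelial barcodes it was 2.19 (1.14 to 4.30) and in macrophages 4.85 (1.35 to 21.5), intervals that hold the whole-library ratio. HKO held 144 and 147 barcodes of the mixed classes against 31 and 53 in WT. Scd1 over the whole libraries was at 3908 CPM in WT against 5048 CPM in HKO, or 1.29 times the WT level (1.29 to 1.30).

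Scd1, Elovl5 and Elovl3 differed between the libraries in barcodes of free RNA depth as in hepatocyte-like barcodes. Both sets of barcodes come from the same 2 libraries, so they are not separate measurements. In hepatocyte-like barcodes Scd1 was at 0.734 times in WT and 0.844 times in HKO the UMIs expected from free RNA scaled by albumin mRNA. Elovl3 was at 0.635 and 0.905 times, and Elovl5 at 1.14 and 1.38 times, and the cause was not tested. In these barcodes Scd1 was at 4534 CPM in WT against 7179 CPM in HKO, or 1.58 times the WT level (1.57 to 1.60), and Elovl3 at 172 and 50.8 CPM, a ratio of 0.295 (0.269 to 0.323). Elovl5 had a ratio of 0.830, Elovl2 of 0.879 and Fads2 of 1.07, while Fads1 had 0.907 (0.843 to 0.974), below 1 where hepatocyte-like barcodes gave 1.15. Of 6958 genes measured there, 3.69% were higher in HKO by 1.5-fold or more and 14.4% were lower by as much.

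Genes of fatty acid synthesis lay mostly below their WT level in HKO hepatocyte-like barcodes, against the direction of Scd1. Of the 58 genes in 5 lists of related steps 43 were measured, and 1 was higher and 10 were lower by 1.5-fold or more, with a median log2 ratio of -0.28 against -0.02 over all 7076 genes. In the list of fatty acid synthesis and its regulators 14 of 15 had a ratio below 1, against 3779 of all 7076 genes, and 6 were at least 1.5-fold lower and 0 higher, against 4.30% and 2.36% of all genes. The lists had been chosen with earlier results of these data known, so nothing is read from the comparison of these shares. Srebf1, the gene of the transcription factor SREBP-1, was at 155 CPM in WT against 32.2 CPM in HKO, or 0.208 times the WT level. Fasn, the fatty acid synthase, was at 111 and 29.96 CPM, a ratio of 0.269. Thrsp, a regulator of lipogenesis, had a ratio of 0.386, Acaca of 0.441, Pklr, the liver pyruvate kinase, of 0.587 and Insig2, which retains SREBPs in the endoplasmic reticulum, of 0.615.

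In the elongation cycle and among other desaturases and elongases 2 of 9 were at least 1.5-fold lower and 0 higher. They were Elovl6, which elongates palmitate before SCD1 acts, at 74.8 CPM in WT against 42.9 CPM in HKO (ratio 0.573), and Hacd2, a dehydratase of the cycle, at 98.2 and 56.8 CPM (ratio 0.578). The paralogs Scd3 and Scd4 had 1 and 0 UMIs in either library. Among electron donors of the desaturases 0 of 4 differed by 1.5-fold. Cyb5a, the cytochrome b5 that feeds them, was at 1325 and 1635 CPM, a ratio of 1.23.

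Among acyl-CoA synthetases and phospholipid remodelling 2 of 8 were lower, Acsl3 with a ratio of 0.486 and Acsl5 with 0.600, both enzymes that activate fatty acids with coenzyme A. Acsl4 was nearest to 1, at 43.2 CPM in WT against 44.1 CPM in HKO (ratio 1.02, 0.948 to 1.10). Among genes that use long polyunsaturated fatty acids 1 of 7 was higher, the peroxisomal thioesterase Acot3, at 13.8 and 30.7 CPM (ratio 2.22). Hsd17b4, the bifunctional protein of peroxisomal β-oxidation, was at 337 and 328 CPM (ratio 0.972, 0.946 to 0.998).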

How the data were processed

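The authors deposited UMI counts of each gene in each barcode, without normalization. The header names Cell Ranger 7.1.0. The submitters' processing notes name mm10, R 3.0 and Seurat 3. How barcodes were chosen and whether introns were counted is not given in the sources used here. Shared cell barcodes between the libraries were not analysed here. The members, gene lists and depth rule were chosen with earlier results of these data known.

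Barcodes with at least 500 UMIs, 300 genes and at most 50% mitochondrial UMIs were kept (29620 WT, 18247 HKO). Scrublet in scanpy 1.11.5 called 0 doublets in either library, so the highest-scoring 0.8% per 1000 barcodes were left out, 23.7% of WT and 14.6% of HKO. Counts scaled to 10000 and log-transformed, 2000 variable genes, 30 components and 15 neighbours gave Leiden clusters at resolution 1.0 (leidenalg 0.10.2, igraph 0.11.9), named when at least 3 markers of a fixed list were in 10% of barcodes and 2-fold above the rest. Other-cell clusters were clustered once more, and classes with markers of more than 1 type were called mixed. A cluster with Sox9 among its leading genes was kept out of the hepatocyte-like barcodes (9 WT, 11 HKO). UMIs were summed per class and library and scaled to 1000000 (CPM). Intervals are exact Poisson, Clopper-Pearson or, for ratios, conditional on the summed count (scipy 1.17.1), and limits for a count of 0 use 3 counts. A gene was called at a fold of 1.5 and a mean CPM of at least 10. The ratio code was tested on simulated data. Named in the text were the 7 members, list genes that differed by 1.5-fold, the 2 list genes nearest to 1, the 5 genes most like Scd1 and 4 zone markers. Other genes were named after their values were seen. Alternatives changed filters, depth, scaling, zones and the free RNA source.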

Additional observations from a re-analysis of the deposited data

How the results depend on the processing

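No paired analysis was possible because each genotype had 1 library. Depth limits Scd2 most, with 29 and 23 UMIs in hepatocyte-like barcodes. Scd1 remained higher in HKO under every alternative tried but 1, the barcodes with under 5% mitochondrial UMIs (0.867), and the cause was not tested. Its ratio was 1.49 at no more than 20% mitochondrial UMIs, 1.48 with no depth minimum, 1.93 at 10000 to 20000 UMIs, 1.35 at 20000 to 40000, 1.64 after thinning, 1.63 with barcodes weighted equally, 1.61 without mitochondrial genes, 1.64 also without ribosomal genes and 1.61 with median-of-ratios scaling. In alternatives chosen after seeing the data it was 1.88 in clusters 6 and 10, 1.86 and 1.99 at 5 to 20% and over 20% mitochondrial UMIs, and 1.88, 1.44 and 1.47 in the periportal, middle and pericentral groups. Relative to the other 6 members it was 1.67, 1.68, 1.98, 1.39, 1.91 and 1.94 under the first 6 of these, 1.68 from 5000 UMIs, 1.65 at 5000 to 10000, 1.71 with free RNA subtracted, 1.93 in clusters 6 and 10, 1.35, 1.86 and 2.06 by mitochondrial share and 2.01, 1.69 and 1.61 by zone group.

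The pericentral over periportal ratio of Scd1 was 1.71 in WT and 1.21 in HKO with the score as a share of UMIs, 1.62 and 1.15 over the outer bins of 5, 1.37 and 1.05 with barcodes weighted equally, and 1.4995 and 1.13 with doublets kept, and 1.14 in HKO from 5000 UMIs. That of Scd2 in HKO turned from 0.410 to 1.24, 1.41 and 1.08 over the outer bins of 5, from 5000 UMIs and with doublets kept, on 3 and 9 UMIs. Elovl3 and Elovl5 stayed below 1 in HKO over WT under all 23 alternatives, Elovl2 crossed 1 under 11 of 23, and Fads1 and Fads2 crossed it under 1 and 2. Of list genes 5 were lower at 2-fold. The higher count was 6 with no CPM minimum and 2 from 5000 UMIs. Scd2 without its highest 1% of barcodes gave no value, since none of its UMIs were left in 1 library. Scd1 was above free RNA in 2 of 14 pairs with doublets kept and in 15 of 16 with hepatocyte-like barcodes as the source.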
